A study of Mus musculus with 4 samples.

Results

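The genes described here are those of the major histocompatibility complex (MHC) and antigen presentation: Cd74, H2-Aa, H2-Ab1, H2-Eb1, H2-K1, H2-D1, H2-Q2 and B2m. They were chosen by symbol, and all 8 were found among the 19465 probe-targeted features of each section. The data are Visium-FFPE counts from 4 coronal brain sections of wild-type C57BL/6J male offspring at postnatal day 21. Their mothers received an amino-acid-defined diet with 2 mg/kg folic acid (FA; the MF group, 2 sections) or 20 mg/kg FA (the HF group, 2 sections), starting before mating and lasting through pregnancy and lactation. Both groups share strain, genotype, sex and age, and the sections of a group are described as biological replicates, without the litter being given.

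MHC molecules carry peptides to the cell surface, where T cells read them. Class I molecules, made of a heavy chain (such as H2-K1 and H2-D1, the classical heavy chains, and H2-Q2, a gene of the Q cluster) bound to beta-2-microglobulin (B2m), present peptides from inside the cell and are made by most cell types. Class II molecules pair an alpha chain (H2-Aa) with a beta chain (H2-Ab1), or use the beta chain H2-Eb1, and present peptides from material taken up from outside. Cd74, the invariant chain, escorts class II chains through the cell. In the healthy brain, class II is known mainly from macrophages and dendritic cells of the meninges, perivascular spaces and choroid plexus rather than from resting microglia.

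In GRCm38, the genes with H2 symbols lie on chromosome 17. H2-K1 spans 33996017 to 34000347, H2-Ab1 34257689 to 34269419, H2-Aa 34282744 to 34287823, H2-Eb1 34305867 to 34316674, H2-D1 35262730 to 35267499 and H2-Q2 35342242 to 35346762. B2m lies on chromosome 2 from 122147686 to 122153083. The heavy chains resemble each other in sequence. Of the 50-base windows of each gene's transcripts, 16.1% for H2-Q2, 13.9% for H2-D1 and 6.87% for H2-K1 also occur in transcripts of other genes, with H2-Q1 as the main partner of H2-Q2, so their counts are uncertain where a probe falls in such a window. No window was shared for Cd74, H2-Aa, H2-Ab1, H2-Eb1 or B2m.

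The 150 bases before the RefSeq start (GRCm38.p6) are shown for 2 class II genes, a heavy chain and B2m, as examples of both classes. H2-D1 and H2-Q2 are not shown because their windows overlap annotated exons by 150 and 65 bases. The overlap is 4 bases for H2-Eb1, 1 for B2m and 0 for H2-Aa and H2-K1. Capitals mark motifs searched on both strands: CCAAT, CTGATTGG (a Y box, which contains CCAAT on the other strand), the enhancer A palindrome of class I genes, and TTTCNNTTC (an interferon response element core).
H2-Aa, chr17:34287824-34287973, minus strand: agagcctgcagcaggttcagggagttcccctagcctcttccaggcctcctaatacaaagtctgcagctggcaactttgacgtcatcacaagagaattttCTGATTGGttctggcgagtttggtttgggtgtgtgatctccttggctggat
H2-Eb1, chr17:34305717-34305866, plus strand: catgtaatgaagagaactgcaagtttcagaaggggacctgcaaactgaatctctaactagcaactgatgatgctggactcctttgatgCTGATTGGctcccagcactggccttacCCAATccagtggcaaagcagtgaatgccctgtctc
H2-K1, chr17:34000348-34000497, minus strand: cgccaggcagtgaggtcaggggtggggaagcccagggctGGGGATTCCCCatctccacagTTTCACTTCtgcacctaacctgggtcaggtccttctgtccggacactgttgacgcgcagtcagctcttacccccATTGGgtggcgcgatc
B2m, chr2:122147537-122147686, plus strand: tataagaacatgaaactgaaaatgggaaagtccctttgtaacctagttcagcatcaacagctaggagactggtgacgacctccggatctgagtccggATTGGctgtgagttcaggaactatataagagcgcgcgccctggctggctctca
The Y box begins 51 bases before the start of H2-Aa and 62 before that of H2-Eb1, and 3.40% of 27025 promoters of the same length hold it. It is not particular to class II, since the window of H2-D1, which overlaps annotated exons, also holds it, 53 bases before the start. In H2-K1 the enhancer A site begins 111 bases and the response element core 90 bases before the start, motifs held by 0.0148% and 3.57% of promoters. B2m has a CCAAT box 53 bases before its start, as 25.3% of promoters hold CCAAT. No promoter is shown for H2-Ab1 and Cd74. These matches are descriptions of the sequence, not measured binding.

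The sections held between 34983708 UMIs (HF replicate 1) and 90098381 UMIs (MF replicate 1), where a UMI is 1 counted molecule, and 3197 to 3598 spots per section were kept. Levels are given as CPM, the share of a gene in all UMIs of the same area and section, scaled to a common total. Probe number differs between genes, so CPM is compared between areas and sections but not between genes. Spots with at least 640 CPM of 15 meningeal genes such as Col1a1 were called meningeal-marker spots (at most 248 per section), those with at least 114 CPM of 12 choroid plexus genes such as Folr1 were called choroid-marker spots (147 to 300), and the remaining 2802 to 3119 per section were called parenchyma. The choroid threshold is low and takes in much neighbouring tissue: only 43 of the 767 choroid-marker spots fell in the cluster of 44 spots led by choroid plexus genes, while 147 fell in habenula and 162 in hippocampus clusters. Of the 708 meningeal-marker spots, 375 fell in the 466-spot meninges cluster, and their median distance from the tissue edge was 1.73 spot steps against 6.93 for parenchyma. A spot covers several cells, so fewer cells of a type and less RNA per cell cannot be told apart.

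Class II transcripts had a higher level in meningeal-marker spots than in parenchyma. Summed over Cd74, H2-Aa, H2-Ab1 and H2-Eb1, the level was 89.1 ± 37.1 CPM (SD, n = 4 sections) in meningeal-marker spots against 11.8 ± 1.68 CPM in parenchyma, 7.05-fold higher as a geometric mean and higher in all 4 sections. Meningeal-marker spots held 15.8% to 35.8% of each section's class II UMIs but only 3.41% to 6.19% of all UMIs. Most class II UMIs, 56.8% to 75.5%, lay in parenchyma, which held 85.0% to 89.5% of all UMIs. Since the genes were chosen with results of these data known, levels by area are described without a test.

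In meningeal-marker spots, Cd74 was 30.6 and 43.3 CPM in MF (replicates 1 and 2) and 68.8 and 71.0 CPM in HF (replicates 1 and 2). In parenchyma the same sections, in that order, had 8.21, 6.69, 9.82 and 9.11 CPM of Cd74. No meningeal value came near the parenchymal range, and the ratio ran from 3.73-fold in MF replicate 1 to 7.79-fold in HF replicate 2. H2-Aa, the alpha chain, had 9.13 and 5.85 CPM in meningeal-marker spots of MF and 17.5 and 22.7 CPM in those of HF, and 0.975 to 1.57 CPM in parenchyma. H2-Ab1, its beta chain partner, had 7.52, 7.61, 19.4 and 18.6 CPM in the same order, against 1.24 to 1.72 CPM in parenchyma. The beta chain H2-Eb1, the least often counted of them, had 3.49, 7.02, 14.8 and 8.96 CPM, against 0.450 to 0.868 CPM in parenchyma. For each of these chains the meningeal level was above the parenchymal level in every section, on average by 10.0-fold for H2-Aa, 8.17-fold for H2-Ab1 and 11.4-fold for H2-Eb1. These values rest on few molecules: 12 to 32 UMIs of H2-Eb1, 10 to 38 of H2-Aa and 74 to 149 of Cd74 per section in meningeal-marker spots.

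Class I genes were also higher in meningeal-marker spots, by smaller ratios. B2m, the shared light chain, had 252 and 223 CPM in MF and 217 and 218 CPM in HF there, against 113 to 141 CPM in parenchyma. Its ratio was the steadiest, between 1.78-fold and 1.97-fold in the 4 sections. H2-D1 had 59.1, 37.4, 49.9 and 67.5 CPM in meningeal-marker spots and 19.1 to 26.6 CPM in parenchyma, a mean ratio of 2.40-fold. H2-K1 had 18.3, 10.5, 13.4 and 15.8 CPM against 3.37 to 6.58 CPM, a mean ratio of 3.01-fold. H2-Q2 was higher by 2.13-fold on average, with a range from 1.41-fold in HF replicate 2 to 3.54-fold in HF replicate 1. Hypothalamus clusters, where H2-Q2 was highest (below), held 88 of 708 meningeal-marker spots and 2185 of 11977 parenchymal spots. Of 14 hypothalamic marker genes, 9 were called higher and 1 lower in meningeal-marker spots, against 18.4% and 12.1% of all features (edgeR, threshold below). The part of this in the H2-Q2 ratio was not tested. The groups of values did not overlap between the areas for B2m, H2-D1 and H2-K1, whereas H2-Q2 in meningeal-marker spots of HF replicate 2 (3.45 CPM) lay within its parenchymal range (2.44 to 9.56 CPM).

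**Figure D1:**
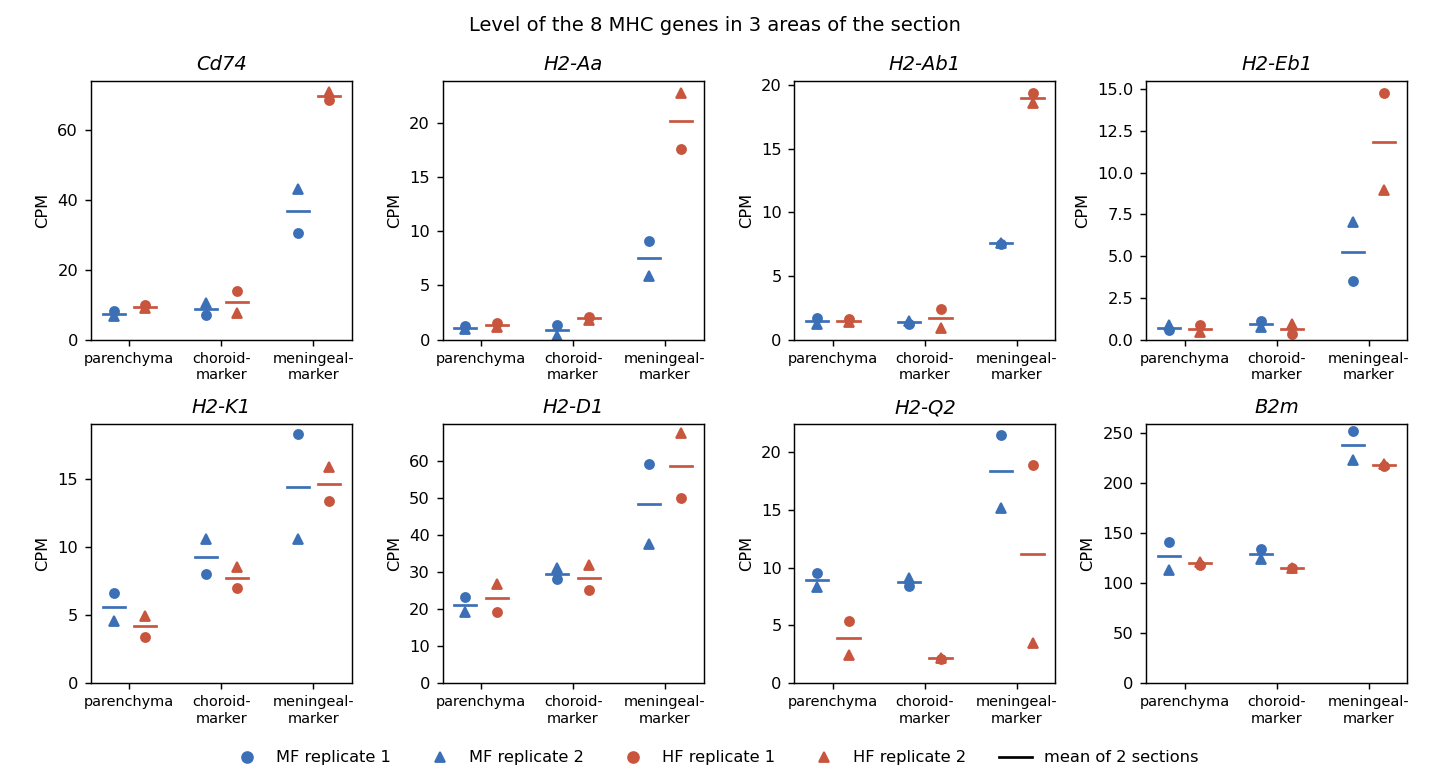
CPM of each gene (y axis, starting at 0) in parenchyma, choroid-marker and meningeal-marker spots, with 1 point per section and a bar at the mean of the 2 sections of a diet. Cd74 lies between 30.6 and 71.0 CPM in meningeal-marker spots and between 6.69 and 9.82 CPM in parenchyma, and in meningeal-marker spots both HF points lie above both MF points for Cd74, H2-Aa, H2-Ab1 and H2-Eb1.

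Choroid-marker spots differed little from parenchyma in class II, with a summed level of 13.4 ± 3.72 CPM (SD, n = 4 sections). Cd74 was 6.94 and 10.6 CPM in MF and 13.9 and 7.59 CPM in HF, higher than in parenchyma in 2 of 4 sections. The definition mattered here: in the 44 spots of the choroid plexus cluster, Cd74 was 15.8, 17.8, 19.0 and 21.5 CPM, above parenchyma in every section. These values rest on few UMIs, since 1 UMI in that cluster was 4.44 CPM in MF replicate 2. B2m in that cluster was 129 to 197 CPM. Its 8 to 13 spots per section gave no UMI of H2-Eb1 in any section and none of H2-Aa in 3 of 4, so these chains were not detectable at this depth.

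Over the clusters named from marker genes, Cd74 was highest in the meninges cluster (66.4 ± 33.1 CPM), then in the choroid plexus cluster (18.5 ± 2.39 CPM) and the hypothalamus (11.5 ± 2.17 CPM), all SD over 4 sections. The choroid plexus value of Cd74 rests on few UMIs per section, an uncertainty that its SD does not fully show. Ependyma, white matter, hippocampus, habenula, cortex, thalamus and striatum followed from 9.76 down to 6.71 CPM, and neighbours in that order differed by less than their SD. B2m followed a partly different order, with meninges (257 ± 14.3 CPM), choroid plexus (165 ± 28.4 CPM) and white matter (161 ± 28.3 CPM) first and thalamus (98.0 ± 7.65 CPM) last. The choroid plexus and white matter values lay within each other's SD. H2-K1 was 10.8 ± 1.57 CPM in white matter and 3.08 ± 0.835 CPM in cortex, 3.59-fold higher as a geometric mean and higher in 4 of 4 sections. H2-D1 was 37.5 ± 8.91 CPM in the habenula, behind the meninges cluster at 60.4 ± 12.2 CPM.

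The rise at the meninges could be followed without any marker gene. In spots within 1 step of the tissue edge, the class II sum was 35.3 and 18.9 CPM in MF and 98.1 and 46.6 CPM in HF. More than 8 steps inside it was 11.6, 9.33, 12.2 and 14.3 CPM. The outer ring was thus 2.03-fold to 8.03-fold higher, and the next ring, up to 2 steps from the edge, had 10.5 to 26.8 CPM. The decline was not steady in MF: the third ring had 18.2 CPM in replicate 1 and 18.4 CPM in replicate 2, the latter close to its outer ring. In replicate 2, however, 1 spot held 45 of the 75 class II UMIs of that ring. B2m was 1.16-fold to 1.69-fold higher in the outer ring than deep inside.

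**Figure D2:**
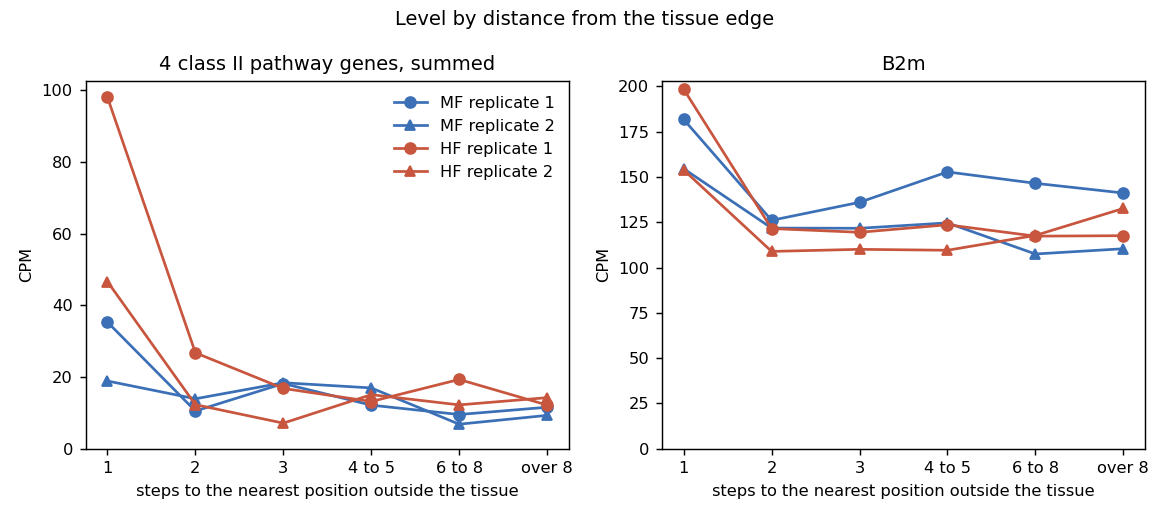
CPM (y axes, starting at 0) of the 4 class II pathway genes summed and of B2m in rings of spots by their distance in spot steps from the nearest array position outside the tissue, 1 line per section. The class II sum drops from between 18.9 and 98.1 CPM in the outer ring to between 10.5 and 26.8 CPM in the next, rises again to 18.2 and 18.4 CPM in the third ring of MF, while B2m starts between 154 and 198 CPM. In the third ring of MF replicate 2, 1 spot held 45 of the 75 class II UMIs.

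Class II UMIs were counted in 784 and 323 spots in MF and in 440 and 452 spots in HF. The richest 1% of spots (32 to 36 per section), chosen by these counts, held 24.1% and 39.4% of the class II UMIs in MF and 36.0% and 34.0% in HF. The richest 5% held 49.4% to 69.5%, and sparse counts raise such shares in themselves. A total of 28 spots had at least 8 class II UMIs, of which 21 were meningeal-marker spots and 16 lay within 1 step of the edge. MF had 9 and 3 such spots and HF had 9 and 7, so that the shallowest section (HF replicate 1) had as many as the deepest (MF replicate 1). A spot in MF replicate 2 held the most, 50 UMIs made of 30 Cd74, 4 H2-Aa, 7 H2-Ab1 and 9 H2-Eb1. In MF replicate 1, 4 of the 9 rich spots lay at least 18 steps inside the tissue, in thalamus, white matter and unnamed clusters.

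The share of spots with an alpha or beta chain was higher where more Cd74 was counted. Among spots without Cd74, 2.83% to 6.20% had a UMI of H2-Aa, H2-Ab1 or H2-Eb1. That share was 5.26% to 10.7% with 1 Cd74 UMI, 24.4% to 40.2% with 2 to 4, and 60.0% to 100% in the 5 to 10 spots per section with 5 or more. Most spots with Cd74 thus held none of the other chains. B2m in those Cd74-rich spots was 292 to 353 CPM, against 116 to 144 CPM in spots without Cd74. Deeper spots yield more of every gene, so spots were also thinned to 5000 UMIs each, and the share with an alpha or beta chain was then 1.19% to 2.12% in spots without Cd74 and 3.26% to 8.82% in spots with 1 Cd74 UMI.

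**Figure D3:**
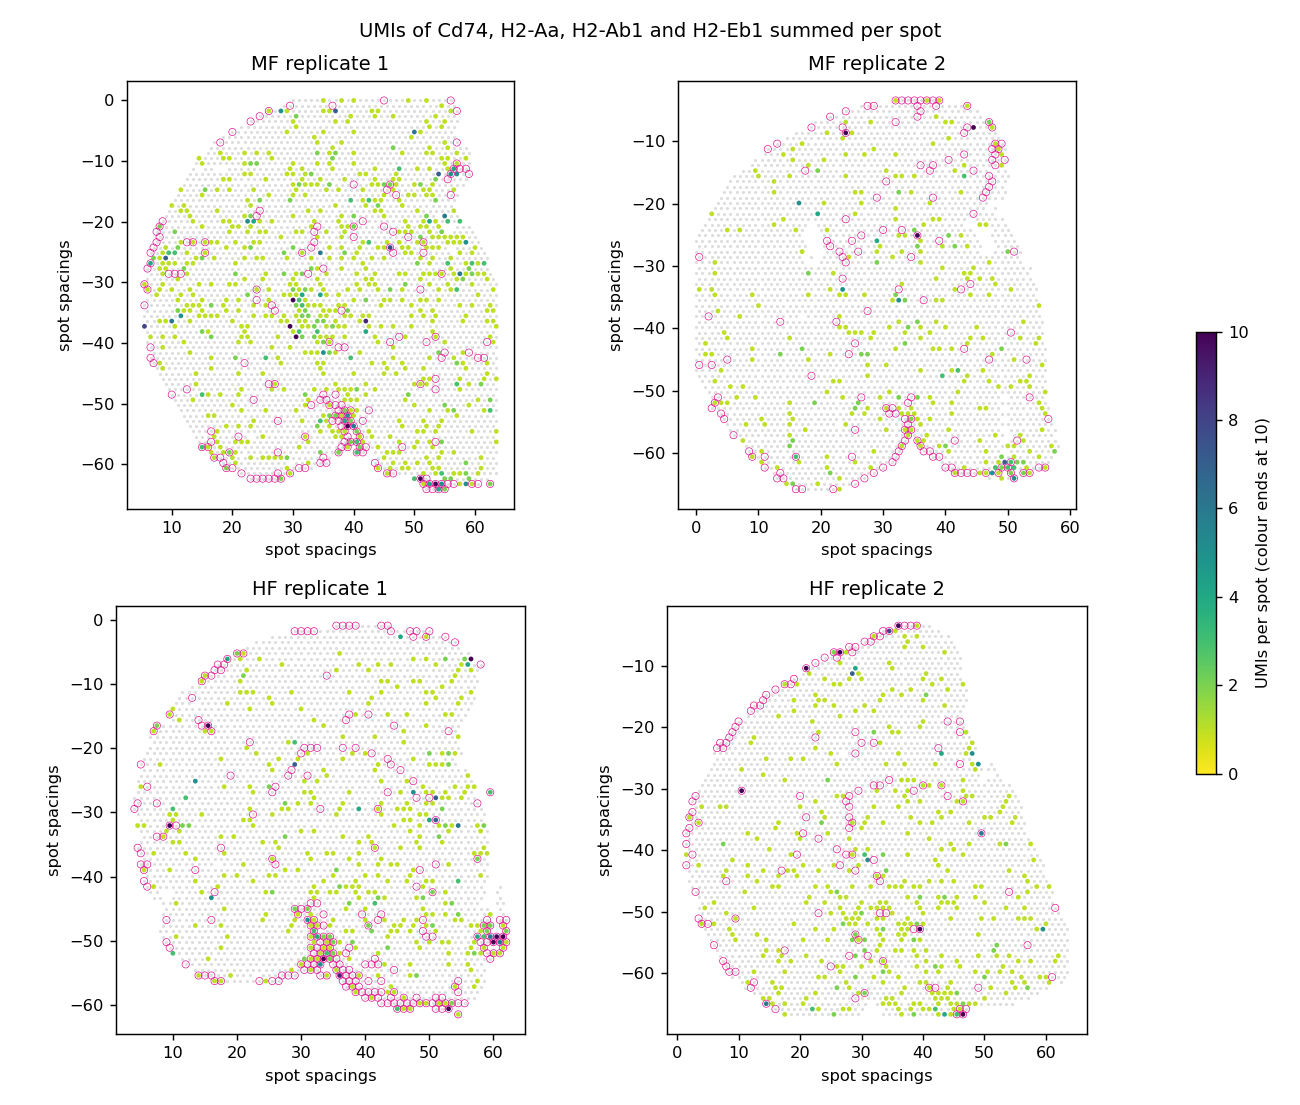
Spots of the 4 sections at their array positions (both axes in spot spacings), coloured by the summed UMIs of Cd74, H2-Aa, H2-Ab1 and H2-Eb1, with spots at 0 in grey and meningeal-marker spots ringed. The darkest spots are few and 21 of the 28 with at least 8 UMIs are ringed, and 16 of the 28 lie within 1 step of the edge.

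Marker lists of several cell types were higher at the meninges. Of 10 border macrophage genes, 9 were called higher in meningeal-marker spots than in parenchyma (edgeR's quasi-likelihood test with section as a block, Benjamini-Hochberg adjusted p under 0.05 and at least 1.2-fold), with a median log2 change of 3.28, against 18.4% of all features called higher. Vascular and blood genes were called higher too, 10 of 10 for endothelium (median log2 change 1.23), 7 of 8 for mural cells (1.37) and 4 of 4 for blood (1.56), and their part in the levels of the MHC genes was not tested. The border macrophage list summed to 149 to 212 CPM there, led by Stab1 (59.5 ± 7.80 CPM) and Mrc1 (40.2 ± 6.99 CPM), scavenger receptors of such macrophages. Microglial genes were called higher for 11 of 13, with a median log2 change of 0.58 and 815 to 976 CPM in sum. Dendritic cell genes summed to 13.5 to 25.9 CPM, most of it Zbtb46 and Flt3. The B cell list reached 23.1 to 28.9 CPM through Ebf1, which vascular and meningeal cells also make, while Cd79a was at 0 in 2 of 4 sections. T and NK cell genes summed to 2.76 to 7.52 CPM, with Cd8a, Nkg7 and Klrb1c at 0 in every section.

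The genes whose levels over 8 areas and regions in the 4 sections (32 sums, log2(CPM + 1)) were most like Cd74 were Klf2 (Pearson r = 0.90), Pf4 (r = 0.90), a border macrophage chemokine, and Psmb8 (r = 0.89), a subunit of the immunoproteasome. Those most like B2m were Fbln2 (r = 0.84), Abcg2 (r = 0.83) and Ranbp3l (r = 0.82). The sums share libraries and depth, so these are descriptions.

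Some of the other pathway genes were called higher at the meninges. Of 14 class I pathway genes, which cut, transport and load peptides, 8 were called higher and 0 lower in meningeal-marker spots than in parenchyma, against 18.4% of all 14609 features called higher and 12.1% lower. The largest changes were in Nlrc5, the transactivator of class I genes (3.54-fold), and in the immunoproteasome subunits Psmb9 (2.94-fold) and Psmb8 (2.94-fold). Of 13 tested other heavy chain genes, 9 were called higher, led by H2-Q1 (20.9-fold), H2-Q4 (5.93-fold) and H2-Q6 (3.89-fold), close relatives of each other whose counts may be shared. Of 15 tested class II pathway genes, 7 were called higher, led by Ciita, the class II transactivator (4.85-fold, SE 0.83 on the log2 scale), H2-DMb1 (2.74-fold), which helps to load peptide, and the costimulator Cd86 (2.53-fold). Of 21 interferon response genes, 17 were called higher, led by Ifitm3 (5.47-fold), Iigp1 (4.19-fold) and Bst2 (3.44-fold), and Ifngr2, an interferon gamma receptor chain, was called lower (0.824-fold).

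In choroid-marker spots the same lists moved less. There 4 of 14 class I pathway genes were called higher, led by Tap2, Erap1 and Tapbp (1.66-fold, 1.64-fold and 1.58-fold), against 14.8% of all 14694 features, and Psmb10 was called lower. Hfe (3.16-fold) and Mr1 (2.40-fold), non-classical heavy chains, and Fcgrt (1.40-fold) were called higher among 11 tested. Of 14 class II pathway genes, H2-DMb1 (2.06-fold) and Ctsl (1.22-fold) were called higher. Of 21 interferon response genes, 5 were called higher, led by Iigp1, Bst2 and Gbp2 (1.75-fold, 1.70-fold and 1.59-fold), and Ifit2 and Ifngr2 were called lower.

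Whether maternal FA dose changed these genes was asked by summing UMIs per section and area and comparing HF with MF. No gene of the 8 was called in the whole section, parenchyma, meningeal-marker or choroid-marker spots, and 0.0% of all features were called in each (edgeR's quasi-likelihood test, Benjamini-Hochberg adjusted p under 0.05 and at least 1.2-fold). At an unadjusted p under 0.05, 1020 of 14971 features passed in the whole section, 971 of 14777 in parenchyma, 403 of 12101 in meningeal-marker and 664 of 12622 in choroid-marker spots, and DESeq2 called 22, 19, 0 and 1 features. With 2 sections per diet an exact permutation test cannot go below a two-sided p of 0.333.

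In meningeal-marker spots the class II genes had higher values in HF, short of the threshold. For Cd74, H2-Aa, H2-Ab1 and H2-Eb1, both HF sections lay above both MF sections, an order that 16.1% of all tested features showed. The fitted difference for Cd74 was 1.94-fold (log2 0.96, SE 0.19; edgeR's unadjusted p = 0.000417, adjusted p = 0.630). For H2-Aa it was 2.47-fold (log2 1.31, SE 0.33), for H2-Ab1 2.5-fold (log2 1.32, SE 0.30) and for H2-Eb1 2.56-fold (log2 1.35, SE 0.44), with an adjusted p of 0.9999 for each. All 4 had an unadjusted p under 0.05, as had 1.72% of all features in that direction, and none of the 8 had one for a lower value in HF, against 1.61% of features. The genes were chosen with earlier results of these data known, so these shares are a description and no test of the set. Levels of H2-Aa, H2-Ab1 and H2-Eb1 also went with those of Cd74 (r = 0.81 to 0.88 over 32 sums), so the 4 are not separate observations. The class I genes did not share this order: the log2 difference was -0.13 (SE 0.13) for B2m, 0.20 (SE 0.23) for H2-D1, -0.09 (SE 0.33) for H2-K1 and -0.64 (SE 0.46) for H2-Q2. Leaving out 1 section moved that of H2-Q2 between -2.44 and -0.05, that of H2-Eb1 between 0.78 and 1.78, that of H2-Aa between 1.09 and 1.75 and that of Cd74 between 0.68 and 1.18. The MF and HF values of H2-D1, H2-K1 and H2-Q2 overlapped, and those of B2m lay slightly lower in both HF sections, an order shown by 15% of features.

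Without the richest class II spot of each section, the meningeal class II sum was 43.0 and 34.8 CPM in MF and 106 and 94.8 CPM in HF. The order of the diets was thus kept without these spots. Calls depended on single sections, and fits that leave 1 section in a diet are given here as sizes alone. Without HF replicate 1 the log2 difference was 1.04 for Cd74 and 1.52 for H2-Aa. Without HF replicate 2 it was 0.94 for Cd74, 1.32 for H2-Ab1 and 1.62 for H2-Eb1. Marker lists of other cells differed in both directions between the diets in these spots. The border macrophage list summed to 149 to 179 CPM in MF and 199 to 212 CPM in HF, and of its 8 tested genes 6 had positive and 2 negative differences, 1 with an unadjusted p under 0.05 (Pf4) and none called. The dendritic list summed to 13.5 to 22.8 CPM in MF and 24.1 to 25.9 CPM in HF. Of its 8 genes only 1 had enough UMIs to be tested, with a log2 difference of 0.17 and no unadjusted p under 0.05 by edgeR's test. The T and NK cell list summed to 4.68 to 7.52 CPM in MF and 2.76 to 3.23 CPM in HF. None of its 9 genes had enough UMIs to be tested, so no difference is drawn from these sums. The mural list summed to 608 to 755 CPM in MF and 591 to 599 CPM in HF. Of its 8 tested genes 3 had positive and 5 negative differences, none with an unadjusted p under 0.05 by edgeR's test. The part of these lists in the class II difference was not tested. The microglial list (815 to 976 in MF, 870 to 974 CPM in HF), the endothelial list (857 to 955 and 934 to 1035 CPM) and the meninges list (1617 to 1933 and 1459 to 2113 CPM) overlapped between the diets.

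The class II differences in parenchyma and choroid-marker spots were lower than in meningeal-marker spots, where they could be tested. The parenchymal Cd74 values given above did not overlap between the diets, an order with HF above MF that 21.0% of features showed. In parenchyma the log2 difference was 0.33 (SE 0.14) for Cd74, 0.23 (SE 0.27) for H2-Aa, -0.05 (SE 0.25) for H2-Ab1 and -0.11 (SE 0.39) for H2-Eb1. In choroid-marker spots Cd74 differed by 0.38 (SE 0.35), while H2-Aa, H2-Ab1 and H2-Eb1 had too few UMIs to be tested. None of the 8 genes had an unadjusted p under 0.05 for a higher value in HF in parenchyma (3.21% of features) or choroid-marker spots (3.28%). In the hypothalamus clusters alone, H2-Aa differed by 1.66 (SE 0.52) and Cd74 by 0.46 (SE 0.18), with an adjusted p of 0.738 for both by edgeR's test. Over the whole section the log2 difference of Cd74 was 0.50 (SE 0.13) and that of H2-Aa 0.69 (SE 0.25). These were the members with an unadjusted p under 0.05 for a higher value there (3.53% of features), and their adjusted p by edgeR's test was 0.696 and 0.700. Without HF replicate 2, the whole-section log2 difference of Cd74 was 0.63. Meningeal-marker spots held 4.13% and 4.03% of all UMIs in MF and 6.19% and 3.41% in HF (replicates 1 and 2). The part of this share in the whole-section differences was not tested. The test of whether the diet difference itself varied between the 3 areas called none of the 8 genes and 0.0% of 13260 features, while H2-Ab1 and H2-Eb1 had an unadjusted p under 0.05, as had 3.18% of features. DESeq2 called 0 features in that test. On simulated sections edgeR's area by diet test recovered 14.5% of 2-fold changes, against 57.5% for HF against MF in meningeal-marker spots. The simulation set a dispersion of 0.02 for every feature and no section effect, and was not matched to the spread of these sections. At these settings the area by diet test missed most differences of that size.

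**Figure D4:**
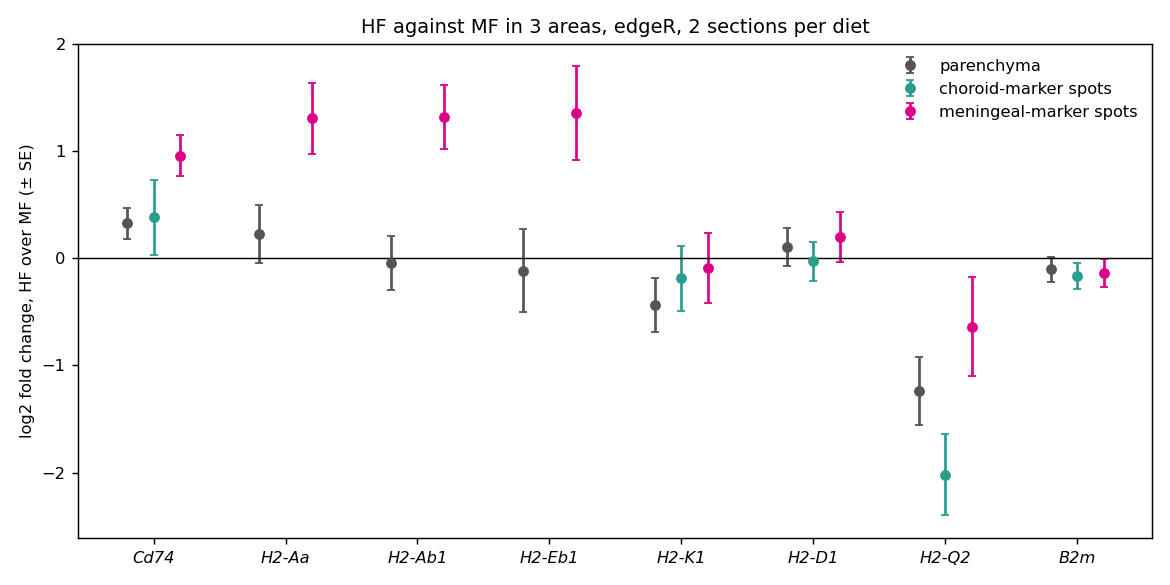
Log2 fold change of HF over MF (y axis, with SE bars) for the 8 genes in parenchyma, choroid-marker and meningeal-marker spots, from edgeR with 2 sections per diet. The class II genes lie between 0.96 and 1.35 in meningeal-marker spots and near 0 in parenchyma except Cd74 (0.33), H2-Q2 lies below 0 in all 3 areas, and no value passed the adjusted threshold.

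H2-Q2 had a map of its own. It was highest in the clusters led by hypothalamic genes, with 44.5 and 31.0 CPM in MF and 21.4 and 7.40 CPM in HF, against 1.67 and 1.27 CPM in cortex of MF and 1.15 and 1.23 CPM in cortex of HF. That is 6.00-fold to 26.6-fold higher than cortex. These clusters covered 16.2% to 18.3% of the spots and held 50% to 63.9% of all H2-Q2 UMIs. Ependyma (14.2 ± 8.57 CPM, SD, n = 4 sections), the meninges cluster (14.2 ± 9.03 CPM) and habenula (6.07 ± 2.60 CPM) came next, and of these ependyma and meninges did not differ beyond their SD. Moran's I, the deposited score of spatial clustering, was 0.414, 0.238, 0.135 and 0.0419 for H2-Q2, the highest of the 8 genes in 3 sections and the third in HF replicate 2, while that of Cd74 ranged from 0.0269 to 0.0581. The features with the most similar levels over the same 32 sums, looked up after the values were seen, were Asb4 (r = 0.94), Ppp1r17 (r = 0.94) and Irs4 (r = 0.94).

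**Figure D5:**
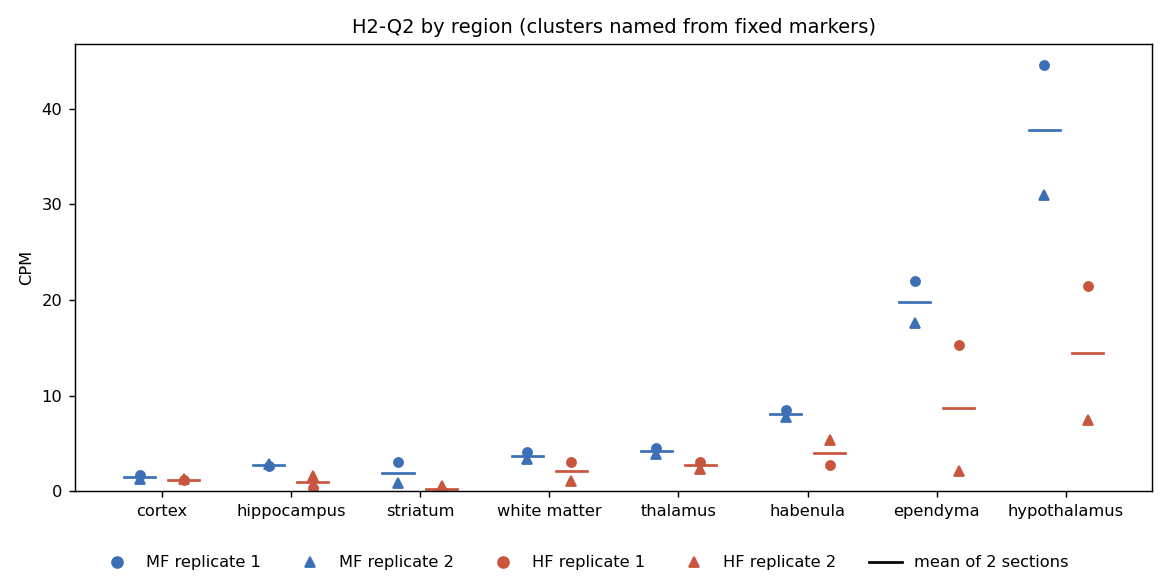
CPM of H2-Q2 (y axis, starting at 0) in regions named from clusters, with 1 point per section and a bar at the mean of each diet. The hypothalamus stands apart, from 44.5 CPM in MF replicate 1 down to 7.40 CPM in HF replicate 2, and cortex lies between 1.15 and 1.67 CPM.

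H2-Q2 was lower in HF than in MF, again without passing the threshold. In parenchyma the values were 9.56 and 8.35 CPM in MF and 5.34 and 2.44 CPM in HF and did not overlap, an order shown by 18.1% of features. The log2 difference was -1.24 (SE 0.32; edgeR's adjusted p = 0.717), and DESeq2 called it. H2-Q2 was the only member with an unadjusted p under 0.05 for a lower value in HF, in parenchyma (3.36% of features), choroid-marker spots (1.98%) and the whole section (3.29%). In choroid-marker spots it had 8.37 and 9.11 CPM in MF and 2.09 and 2.12 CPM in HF, a log2 difference of -2.02 (SE 0.38; edgeR's adjusted p = 0.189). These values rest on 82 and 25 UMIs in MF and 6 and 7 in HF. The choroid plexus cluster itself held 0 and 1 UMIs of H2-Q2 in MF and 0 in each HF section. The difference in choroid-marker spots was therefore counted almost wholly outside that cluster. The choroid plexus marker list was itself higher in HF in these spots, at 1057 and 1191 CPM against 553 and 779 CPM in MF, and its part in this difference was not tested. In the hypothalamus clusters alone the log2 difference was -1.55 (SE 0.35), and in parenchyma without them it was -0.92 (SE 0.25). The size varied with the HF section used: leaving out HF replicate 2 gave a parenchymal difference of -0.77, and leaving out HF replicate 1 gave -1.89. Each of these fits leaves 1 HF section.

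HF replicate 2 stood apart in hypothalamic neuropeptides. Oxt and Avp, neuropeptides of magnocellular neurons, had 638 and 469 CPM over the whole section in HF replicate 2, but 1.2 and 11.3 CPM in HF replicate 1 and at most 4.10 and 2.84 CPM in the MF sections. Of the 14 hypothalamic marker genes, 11 had negative and 3 positive HF against MF differences in parenchyma (median log2 -0.22). By edgeR's test 6 had an unadjusted p under 0.05, 3 of them higher in HF, against 3.21% of features higher and 3.36% lower. In choroid-marker spots 10 of 12 tested were negative (median log2 -0.38). There 7 had an unadjusted p under 0.05, 2 of them higher in HF, against 3.28% of features higher and 1.98% lower. None was called in either area. The part of these differences in that of H2-Q2 was not tested.

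None of the pathway genes was called between HF and MF. Of 14 class I pathway genes tested in parenchyma, 8 had higher and 6 lower fitted values in HF, with a median log2 difference of 0.04 against 0.00 over all features. In meningeal-marker spots the medians were -0.04 for 12 class I pathway genes, -0.01 for 8 class II pathway genes, and 0.18 for 20 interferon response genes, of which 16 had positive differences.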

How the data were processed

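Brain sections of 4 offspring were measured with Visium-FFPE, in which probe pairs hybridise to fixed RNA over barcoded spots. The authors mapped probe reads to mm10 with Space Ranger 2.0.0 and deposited raw UMI counts per spot, whole numbers without normalization, together with Moran's I per feature, a score that rises when neighbouring spots have like levels. Of the spots, those under 500 UMIs or 250 genes were left out here.

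A spot was meningeal-marker at 5 times, or choroid-marker at 10 times, the median CPM of a marker list with at least 3 list genes counted, and a spot past both (154 spots) took the list with the larger ratio. Regions came from Leiden clusters (2000 variable genes, 30 components, 20 neighbours, resolution 1; leidenalg 0.10.2), with the 8 genes, their pathway lists and the interferon list left out, and were named from at least 3 markers among 50 leading genes. No doublet removal applies to spots.

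UMIs were summed per section and area and compared with edgeR 4.0.16 (TMM, filterByExpr, quasi-likelihood test, Benjamini-Hochberg over all features, threshold 0.05 and 1.2-fold). The tests were tried on simulated sections first. Alternatives were DESeq2 1.42.0, a replicate block, no low-count filter, library size alone, halved and doubled thresholds, thinning to 5000 UMIs (742 spots left out), areas from clusters and leaving out each section. Spots of a section are not replicates. In HF against MF, p-values measure the spread between sections of a diet. In area contrasts and area by diet, with section as a block, they measure how area differences vary between sections. Gene positions are from GENCODE and promoter sequences from RefSeq. Named genes are the 8 members, in area contrasts the 3 called genes per pathway list with the largest change in each direction, the 2 most abundant markers of cell type lists, and the 3 features most like Cd74 and B2m. Others are named where stated. Some marker genes are not reported here. The members and lists were chosen with earlier results of these data known.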

Additional observations from a re-analysis of the deposited data

How the results depend on the processing

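With 2 sections per diet, counts of called features depended on the processing, starting from 0 in each HF against MF comparison. DESeq2 called 22 in the whole section, 19 in parenchyma (1 member, H2-Q2), 0 in meningeal-marker and 1 in choroid-marker spots. Without a low-count filter, 5, 1, 22 and 101 were called in the same order, with 2 members in meningeal-marker spots (Cd74 and H2-Aa) and 1 in choroid-marker spots (H2-Q2), and 80 for area by diet. Spots thinned to 5000 UMIs gave 1 in the whole section, 1 in parenchyma, 5 in choroid-marker spots and 1 for area by diet. Areas taken from clusters gave 3 in choroid plexus and 1 for area by diet, library size alone 2 for area by diet and doubled marker thresholds 1.

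Without any 1 section, 0 to 1166 features were called in the whole section (0 to 2 members), 0 to 1071 in parenchyma (0 to 1), 1 to 321 in meningeal-marker spots (0 to 3), 1 to 54 in choroid-marker spots (0 members) and 1 to 5 for area by diet. The high counts came without HF replicate 1 (1166, 1071 and 321) or HF replicate 2 (840, 708 and 228). Such fits leave 1 section in a group, assumed to vary like the others. Log2 differences that changed sign without 1 section were those of H2-D1 (-0.073 to 0.63) and H2-K1 (-0.34 to 0.45) in meningeal-marker spots and of B2m (-0.24 to 0.061), H2-D1 (-0.13 to 0.30) and H2-Eb1 (-0.19 to 0.90) in the whole section. H2-K1 in meningeal-marker spots was also 0.11 with areas from clusters, 0.031 with the crossed block and 0.047 after thinning.

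Replicate numbers are shared between the diets but mark no common source, and same-numbered sections deviated with r = -0.165. With the replicate block, 18 features were called in meningeal-marker spots (1 member, Cd74), 10 in parenchyma and 7 in choroid-marker spots. The crossed block, chosen after seeing the data, called 11 features in the whole section, 82 in parenchyma (1 member), 6 in meningeal-marker and 125 in choroid-marker spots (1 member).

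The meningeal differences of both class sums kept their direction under every alternative run. The mean log2 ratio of class II in meningeal-marker spots to parenchyma was 2.82, and 3.45 and 2.18 with doubled and halved thresholds. For the class I heavy chains it was 1.31, and 1.58 and 0.92. Class II in choroid-marker spots moved from 0.16 to 0.94 with areas from clusters and to -0.11 after thinning. Over all features, meningeal-marker spots had 2689 higher and 1772 lower, 3306 and 1047 with library size alone, 1768 higher after thinning and 1148 lower with halved thresholds. Choroid-marker spots had 2174 higher and 1722 lower, 2618 and 1222 with library size alone, 1197 and 1026 after thinning, and 3466 lower with areas from clusters. The causes were not tested.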
